A study of Mus musculus with 6 samples.

Results

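The genes described here are the AP-1 factors of the Jun and Fos families, 9 genes of the 50559 in the deposited tables: Jun, Junb and Jund, then Fos, Fosb, Fosl1 and Fosl2, and the related factors Atf3 and Batf3. They were taken by exact gene symbol and were chosen by their counts and TPM in these same 6 libraries, with the difference between WNT3 overexpression and control already known. Every difference between those groups given below for a member is therefore a description. Where the outcome of a fit over all genes is stated for members, it describes values that entered their choice and is no independent test. RNA was sequenced from C57 mice in 2 groups, 3 libraries labelled WNT3 overexpression and 3 labelled control. The tissue label is auditory cortex for all 6, while the extraction protocol names striatum. The labels used here give no age or sex, do not say how Wnt3 was overexpressed or what the control mice received, and do not state that replicates are separate animals, so the spread between libraries may be partly technical.

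AP-1 is a family of paired transcription factors, each partner being a protein with a basic region that touches DNA and a leucine zipper that holds the pair together. Jun proteins pair with each other or with Fos proteins, whereas Fos proteins need a Jun partner, and the pairs bind the TRE, TGACTCA, and more weakly the CRE, TGACGTCA. In cortical neurons Fos, Fosb, Junb and, less steeply, Jun are immediate early genes, whose transcripts appear soon after synaptic activity and are quickly degraded, while Jund is made continuously. Atf3 is known as a factor induced by cell stress and nerve injury, and Batf3 is best known in dendritic cells.

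The upstream DNA of 5 members is shown because it can carry letters through which these genes are known to be switched on. Shown are Jun, Junb and Fos, which were lower in every overexpression library. Fosb, a second Fos gene of neurons, and Atf3, the tested member with a higher level, are shown as well. Each line gives the 120 bases before the RefSeq transcription start (GRCm38.p6), 5′ to 3′ on the strand of the gene. Capitals mark TGACG, the first letters of a CRE, on either strand, and the TRE-like TGACATCA of Jun. The windows are chr4:95052223-95052342 on the minus strand for Jun, chr8:84978749-84978868 on the minus strand for Junb, chr12:85473770-85473889 on the plus strand for Fos, chr7:19310046-19310165 on the minus strand for Fosb and chr1:191183334-191183453 on the minus strand for Atf3.
Jun: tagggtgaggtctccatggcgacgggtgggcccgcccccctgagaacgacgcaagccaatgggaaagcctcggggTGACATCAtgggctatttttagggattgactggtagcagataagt
Junb: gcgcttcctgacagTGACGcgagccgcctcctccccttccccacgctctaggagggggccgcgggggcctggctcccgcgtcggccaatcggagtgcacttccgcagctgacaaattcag
Fos: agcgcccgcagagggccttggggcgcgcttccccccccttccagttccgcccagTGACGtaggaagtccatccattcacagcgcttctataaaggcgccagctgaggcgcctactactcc
Fosb: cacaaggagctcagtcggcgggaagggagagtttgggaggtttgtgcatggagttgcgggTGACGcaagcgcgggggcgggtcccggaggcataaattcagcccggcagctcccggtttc
Atf3: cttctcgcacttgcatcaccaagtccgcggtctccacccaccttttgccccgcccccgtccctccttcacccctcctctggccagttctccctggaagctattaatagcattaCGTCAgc

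A search of the 250 bases before the start, on both strands, found TGACG in the records of 4 members, Junb, Fos, Fosb and Atf3, among the 8 members with a RefSeq promoter record, against 17.8% of all 32851 records. The Junb match began 106 bases before the start, the Fos match 66, the Fosb match 60 and the Atf3 match 7. TGACATCA stood in the Jun record, 45 bases before the start, and in 2.93% of all records. The whole CRE, TGACGTCA, was in 0 of the 8 members' windows and in 1.55% of all records, and the whole TRE, TGACTCA, was in 0 of 8 and in 4.46%. The CArG box, which binds SRF, was in 0 of 8 and in 1.47%. Bases farther than 250 before the start were not searched, so sites lying there would be missed. TATAAA, read on the coding strand, was in the Fos record and in 7.59% of all. The RefSeq record of Atf3 starts 34706 bases away from the start of the GENCODE gene, while those of Jun and Fos match it exactly. Those of Jund, Fosl2 and Batf3 start 1210, 671 and 567 bases away, and had no match to the letters searched. These distances exceed the 250 bases searched, so the windows do not cover the bases just before the GENCODE start. TGACG is part of the CRE, so those searches overlap, and a match describes letters, not a bound site.

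Structural features of the transcripts played no part in the choice of members, and most of them were found in only some members. Jun, Junb and Jund each consist of 1 exon in the GENCODE M21 annotation, as do 8.10% of the 17055 protein-coding genes with a principal transcript, while Fos, Fosb, Fosl1, Fosl2 and Atf3 have 4 exons and Batf3 has 3. All 9 transcripts are richer in G and C than the median coding transcript of 49.1%, from 51.9% in Fos to 67.1% in Jund. The pentamer ATTTA, the core of the AU-rich elements that mark short-lived messages, occurred in the 3′ UTR of 8 members, all but Batf3, against 62.4% of 16339 genes. At least 3 copies were in 4 of the 9 members, against 32.8% of genes. Per kb of 3′ UTR the count was 4.91 in Fos, 4.12 in Junb and 3.24 in Jun, with 1.88 in Jund and 0.47 in Fosb, beside a median of 1.2 over all genes. The nonamer TTATTTATT was in Fos and Fosl2 and in 7.01% of all genes. The 30 bases of each 3′ UTR with the most ATTTA, in capitals, are shown for the members with the highest density and for Fosl2, which has the most copies, 8.
Jun: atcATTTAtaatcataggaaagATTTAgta
Junb: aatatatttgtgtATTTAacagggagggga
Fos: ttgtgttttcaATTTATTTAttaagatgga
Fosl2: aattgacATTTAttttattATTTAttttaa

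Total counts per library ranged from 42614588 to 71803617, and 22360 genes had enough counts to be tested. Wnt3, the targeted gene, stood at 98.8, 7.45 and 8.71 CPM (counts relative to the library total, scaled by TMM factors) in the overexpression libraries, against 2.70, 1.91 and 1.74 CPM in controls. Control 2 had the highest mitochondrial share of counts, 12.5% against 9.12% to 10.55% in the other libraries. Its 5 blood marker genes summed to 722 CPM, against 119 to 475 CPM elsewhere. It also stood apart from the other 5 libraries by transcript length. Among the 5590 tested genes with the shortest transcripts, its median level was 0.64 above the mean of all 6 libraries on the log2 scale, and among the 5590 with the longest 0.48 below it, whereas the other libraries stayed between -0.15 and 0.13 in every length class. As a cortical check, Slc17a7, the vesicular glutamate transporter of cortical excitatory neurons, was at 684 to 782 CPM in overexpression and 681 to 826 CPM in controls, far above the striatal receptor gene Drd1, at 8.19 to 22.4 CPM and 11.2 to 22.2 CPM. All comparisons below are between bulk samples, in which fewer cells of a type and less RNA per cell cannot be told apart.

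Jun, which encodes the c-Jun protein, lies at chr4:95049034-95052222 (mm10, minus strand). It was at 19.4, 18.8 and 21.0 CPM in the overexpression libraries, against 35.95, 43.5 and 43.8 CPM in controls. The groups were well apart and each was narrow: the lowest control was 1.71 times the highest overexpression library. The means were 19.8 ± 1.15 CPM and 41.1 ± 4.46 CPM (SD, n = 3 each), a log2 fold change of -1.06 ± 0.17 (SE). In TPM, which also divides by transcript length, Jun was at 15.7, 14.6 and 15.8 in overexpression and 27.2, 22.6 and 32.8 in controls. The overexpression libraries were close in Jun, and their Wnt3 levels differed widely, with library 1 far above the other 2. Whether Jun follows the Wnt3 level was not tested. Without single libraries the Jun fold change ran from -1.14 without control 1 to -1.0 without control 3 on the log2 scale.

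Junb encodes JunB, an immediate early Jun protein that can also restrain c-Jun, and lies at chr8:84974484-84978718 (minus strand). It was at 13.4, 15.4 and 16.3 CPM in overexpression, against 29.3, 73.8 and 38.8 CPM in controls. All overexpression libraries lay below all controls, and control 2 was far above the other controls. The means were 15.02 ± 1.51 CPM and 47.3 ± 23.4 CPM (SD, n = 3 each), and the log2 fold change was -1.65 ± 0.33 (SE), the most negative of the 3 Jun genes with all libraries in. Without control 2 it was -1.18.

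Jund encodes JunD, the Jun protein made in unstimulated cells, and lies at chr8:70698949-70700616 (plus strand). It was at 24.7, 24.3 and 32.5 CPM in overexpression, against 31.6, 94.9 and 29.7 CPM in controls. Overexpression library 3 lay above controls 1 and 3, and control 2 stood alone at the top. The log2 fold change of -0.94 ± 0.44 (SE) was -0.17 without control 2, so the difference rested on that library. The Jund level of control 2 was 1.63 above the mean of the other 2 controls on the log2 scale, while the median gene of its length class was 0.11 below; a fit with the length trend removed left Jund at -0.94. What set control 2 apart in Jund was not tested.

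Fos, whose product c-Fos is the classical marker of recently active neurons, lies at chr12:85473890-85477273 (plus strand). It was at 21.7, 15.7 and 23.5 CPM in overexpression, against 32.2, 73.1 and 62.7 CPM in controls. The groups did not overlap, and the lowest control, control 1, was 1.37 times the highest overexpression library. The means were 20.3 ± 4.06 CPM and 56.0 ± 21.3 CPM (SD, n = 3 each), with a log2 fold change of -1.46 ± 0.315 (SE) that ran from -1.74 without control 1 to -1.22 without control 2.

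Fosb encodes FosB and, by splicing, the long-lived short form deltaFosB; gene counts do not separate these forms. It was at 8.56, 7.12 and 11.7 CPM in overexpression, against 6.01, 15.4 and 23.4 CPM in controls. Control 1 was the lowest of all 6 libraries, so the groups overlapped. The log2 fold change was -0.71 ± 0.45 (SE) and was -0.23 without control 3.

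Fosl2, which encodes Fra-2, was at 20.8, 30.4 and 43.9 CPM in overexpression, against 34.3, 28.3 and 68.9 CPM in controls. The groups were interleaved, with control 3 at the top. The log2 fold change of -0.47 ± 0.38 (SE) turned to 0.02 without control 3. Fosl1, which encodes Fra-1, was nearly silent: it had 0, 11 and 15 counts in overexpression and 0, 9 and 0 counts in controls, did not pass the edgeR filter on low counts. DESeq2, which ran without that filter, did not call it, and no fold change is given on so few counts.

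Atf3 was the only tested member with a positive fitted fold change. It was at 0.82, 1.77 and 0.94 CPM in overexpression, against 0.49, 0.79 and 1.29 CPM in controls. The ranges overlapped, and the log2 fold change of 0.45 ± 0.49 (SE) was 0.04 without overexpression library 2. Batf3 was at 0.07, 0.32 and 0.35 CPM in overexpression, against 0.28, 1.06 and 0.51 CPM in controls, on 4 to 58 counts per library. Its log2 fold change of -1.31 ± 0.72 (SE) was -0.67 without control 2.

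**Figure D1:**
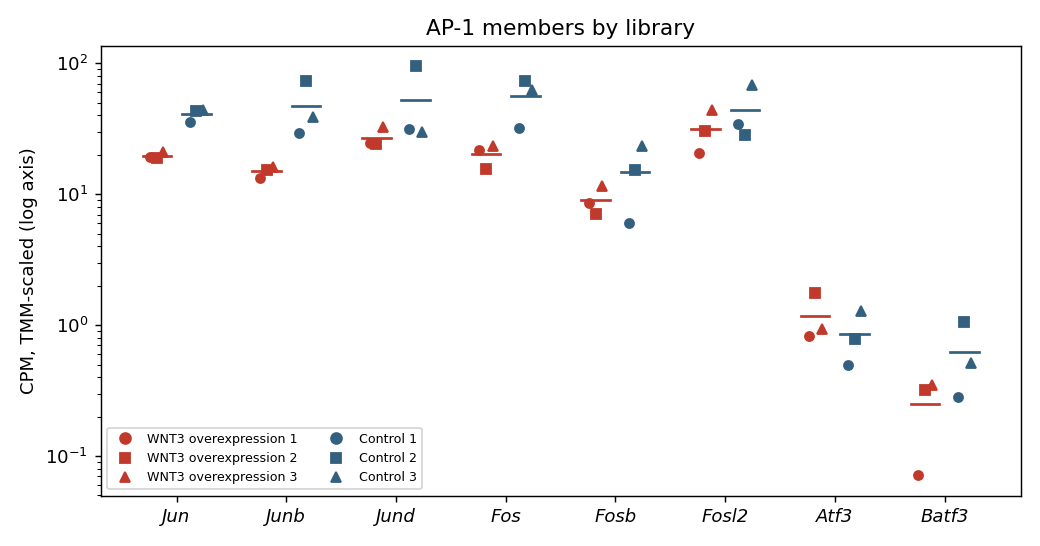
Level of the 8 tested members in each library, in CPM on a log axis; each symbol is 1 library, red for WNT3 overexpression and blue for control, and the bars are group means of 3. Jun, Junb and Fos have every overexpression library below every control, while the other 5 genes overlap.

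Set together, a fitted value below 0 was found in 7 of the 8 tested members, beside 50.7% of all tested genes and 49.7% of those with a mean of at least 1 CPM. The members' median was -0.998 on the log2 scale, beside -0.01 over all tested genes. All 3 overexpression libraries lay below all 3 controls in 3 members, Jun, Junb and Fos, beside 6.04% of all tested genes, and above all 3 controls in 0 members, beside 5.89%. With p-values adjusted over every gene by Benjamini-Hochberg, the edgeR quasi-likelihood test called 0 of the 22360 genes, 0%, and so 0 members; at an unadjusted p under 0.05 it listed 1040 genes, 4.65%, and 625 of them, 2.8% of those tested, were lower in overexpression, with Jun, Junb and Fos among them. DESeq2 called 64 of 25561 genes, 0.25%, of which 28, 0.11%, were lower, among them the same 3 members; it called 0 members without overexpression library 1 or without overexpression library 2, and 2, Jun and Junb, without control 3. These counts rest on the contrast from which the members were picked and add nothing to their choice.

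**Figure D2:**
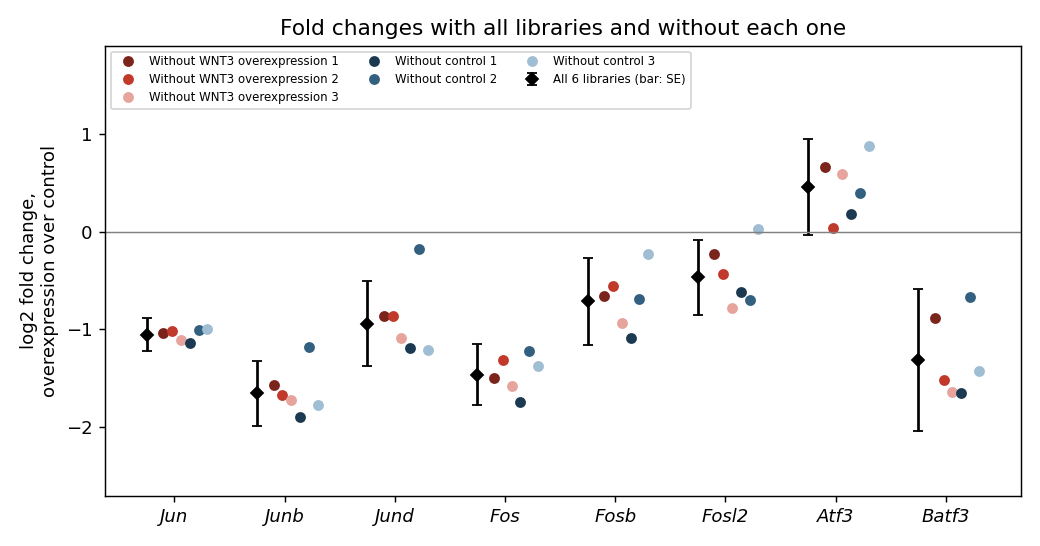
Log2 fold change of overexpression over control for the 8 tested members, with all 6 libraries (black, bar is the SE of the edgeR fit) and without each library in turn (coloured points). Jun, Junb and Fos stay at -1.0 or below in every case, whereas Jund goes to -0.17 without control 2 and Fosl2 to 0.02 without control 3.

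Levels of different members can be set side by side only in TPM. In overexpression the order was Fos (23.9 ± 4.70 TPM), Jund (23.3 ± 3.32), Junb (20.2 ± 1.36), Jun (15.3 ± 0.67), Fosl2 (12.3 ± 3.88), Fosb (6.01 ± 1.43), Atf3 (1.46 ± 0.65), Batf3 (0.82 ± 0.53) and Fosl1 (0.18 ± 0.16) (SD, n = 3). In controls it was Fos (55.1 ± 17.3 TPM), Junb (51.7 ± 14.1), Jund (35.3 ± 16.8), Jun (27.5 ± 5.12), Fosl2 (16.4 ± 10.2), Fosb (8.49 ± 5.73), Batf3 (1.67 ± 0.77), Atf3 (0.92 ± 0.53) and Fosl1 (0.05 ± 0.09) (SD, n = 3). Neighbours whose ranges did not overlap were Junb and Jun, Fosl2 and Fosb, and Fosb and Atf3 in overexpression, and Fosb and Batf3, and Atf3 and Fosl1, in controls; all other neighbours overlapped. The 4 leading genes, Fos, Junb, Jund and Jun, were the same in both groups.

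The summed Jun family level was 56.3, 56.1 and 64.1 TPM in overexpression, against 92.0, 144 and 108 TPM in controls, with no overlap. Its makeup also differed. Junb made up 33.1%, 36.9% and 33.1% of the sum in overexpression and 41.7%, 46.2% and 46.7% in controls, apart in every library on the TPM and on the CPM scale. Jund made up 39.1%, 37.1% and 42.2% in overexpression and 28.7%, 38.0% and 22.9% in controls, where control 2 overlapped the overexpression range. The mean Jund share was 39.5% ± 2.58 in overexpression and 29.9% ± 7.64 in controls (SD, n = 3 each), a difference of 9.60 percentage points, or 13.7 points without control 2.

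The summed Fos family level was 40.4, 36.1 and 50.4 TPM in overexpression, against 54.2, 72.3 and 114 TPM in controls, with no overlap on this scale. In CPM the same sum was 51.1, 53.4 and 79.3 in overexpression and 72.5, 117 and 155 in controls, so that overexpression library 3 lay above control 1. The Jun family sums did not overlap in CPM either. Fos supplied 65.4%, 51.1% and 53.0% of that sum in overexpression and 67.8%, 79.4% and 62.6% in controls. The ratio of Fosb to Fos was 0.22, 0.25 and 0.28 in overexpression, against 0.10, 0.12 and 0.21 in controls, higher in every overexpression library. The ratio of Junb to Fos was 0.70, 1.12 and 0.80 in overexpression, against 1.04, 1.157 and 0.71 in controls, so these 2 immediate early genes kept overlapping proportions.

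**Figure D3:**
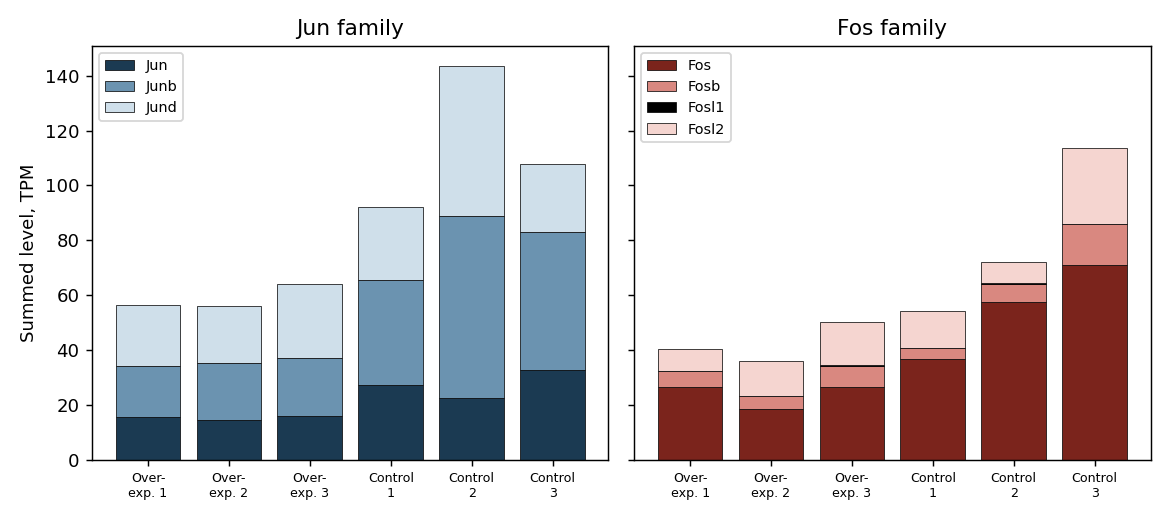
Summed TPM of the Jun family (left) and of the Fos family (right) in each library, stacked by gene, with the 3 overexpression libraries left of the 3 controls. The Jun sums are 56.1 to 64.1 TPM in overexpression and 92.0 to 144 TPM in controls, and the Fos sums 36.1 to 50.4 TPM and 54.2 to 114 TPM.

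The scale matters for the size of these differences. Over genes with a mean of at least 0.5 TPM, the median difference on the log2(TPM + 1) scale was 0.18. The ratio of TPM to CPM for Jun was 0.81, 0.77 and 0.75 in overexpression and 0.76, 0.52 and 0.75 in controls. On that scale the log2 differences were -0.79 for Jun, -1.28 for Junb and -1.14 for Fos, or -0.97, -1.46 and -1.32 relative to the median gene. All 3 genes kept their overexpression libraries below every control.

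The patterns of Jun, Junb and Fos over the 6 libraries were set against each other and against those of other genes. Likeness was taken as the root mean square difference between log2 CPM profiles over the 6 libraries, each centred on its own mean. The comparison was with 13871 other tested genes with a mean of at least 1 CPM. It left out the members and symbols that start with Gm and digits, end in Rik or are clone or locus names. The difference between Fos and Junb was 0.30, between Fos and Jun 0.35 and between Jun and Junb 0.42. Ranked by nearness to Fos among the other genes, Junb came 3rd and Jun 7th; by nearness to Junb, Fos came 6th and Jun 58th. By nearness to Jun, whose profile has a smaller SD (0.59), Fos came only 200th and Junb 870th. The group difference is part of each profile and was known when the members were chosen, so nearness among them is a description. Nearest to Junb were Ier2 (0.23), an immediate early gene, Rspo1 (0.27), which encodes an R-spondin, Dusp1 (0.28), an immediate early MAP kinase phosphatase, Opalin (0.30) and Sdhaf1 (0.30). Nearest to Fos were Zglp1 (0.22), Pcdha10 (0.28), Sdhaf1 (0.32), Kcnj14 (0.32) and Opalin (0.33). Nearest to Jun were Kcnj14 (0.13), which encodes a potassium channel, Plekho2 (0.17), Mex3d (0.18), Epha8 (0.18) and Erf (0.19), which encodes a transcriptional repressor of the ETS family. Ier2 was at 2.96, 3.42 and 4.13 CPM in overexpression and 4.998, 20.7 and 7.62 CPM in controls, and shared the high value of control 2 with Junb. Fosl2, by contrast, differed from Junb by 0.90 and Atf3 by 1.15.

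Of 82 genes on 6 lists of partners, regulators and targets, 75 were tested, of which 46 had a positive and 29 a negative fitted fold change, with a median log2 fold change of 0.16. The edgeR test called 0 of the 75, in either direction, and listed 4 at an unadjusted p under 0.05; DESeq2 also called 0. All adjusted p-values below are from the edgeR quasi-likelihood test.

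Among 13 tested partner genes of the bZIP type, 7 were fitted higher and 6 lower, with a median of 0.17. Mafa, a large Maf factor, was at 0.55, 0.43 and 0.41 CPM in overexpression and 0.94, 1.83 and 0.91 CPM in controls, a log2 fold change of -1.40 ± 0.44 (SE, adjusted p = 0.822). For Atf4, the main factor of the integrated stress response, the fitted log2 difference was -0.55 ± 0.28 (SE, adjusted p = 0.822), with control 2 at 164 CPM well above the other libraries. The kinases that phosphorylate Jun and the route from ERK to Fos gave 14 of 17 fitted higher, with a median of 0.15. By library, though, the median of this list relative to the control mean was 0.18, 0.09 and 0.10 in overexpression and 0.12, -0.27 and 0.15 in controls, so that only control 2 was low. The fitted log2 difference was -0.42 ± 0.20 (SE) for Mapk8ip1, a scaffold of the JNK kinases, and 0.44 ± 0.24 (SE) for Rps6ka5, the kinase MSK1, both with an adjusted p of 0.822.

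Among SRF, its cofactors, and the CREB and MEF2 factors, which drive immediate early genes, 11 of 14 were fitted higher, with a median of 0.20. The fitted log2 difference was 0.77 ± 0.34 (SE) for Elk4, a cofactor of SRF, and 0.56 ± 0.25 (SE) for Mrtfb, another, both with an adjusted p of 0.822. Mrtfb was at 313, 298 and 280 CPM in overexpression and 225, 126 and 254 CPM in controls, and control 2 was the lowest. By library the median of this list lay 0.31 below the control mean in control 2, and between 0.14 and 0.27 above it in the other 5 libraries, controls included. In 5 of the 14 genes every overexpression library lay above every control, beside 5.89% of all tested genes. The reverse held in 0 of the 14, beside 6.04%. Of 6 genes that mark Jun for degradation or feed that step, 2 were fitted higher and 4 lower; the fitted log2 difference was -0.46 ± 0.20 (SE) for Fbxw7, a ubiquitin ligase receptor for c-Jun, and 0.35 ± 0.23 (SE) for Itch, another ligase, both with an adjusted p of 0.822.

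Of 21 genes listed as AP-1 targets, 17 were tested, of which 7 were fitted higher and 10 lower, with a median of -0.15. Penk, the enkephalin precursor and a target of Fos proteins in neurons, was at 12.6, 11.1 and 29.1 CPM in overexpression and 26.4, 53.0 and 70.1 CPM in controls, a log2 fold change of -1.50 ± 0.46 (SE, adjusted p = 0.822). Penk is also abundant in striatal projection neurons, and overexpression library 3 lay above control 1. Cd44, a hyaluronan receptor, was at 7.06, 2.30 and 4.65 CPM in overexpression and 1.62, 1.82 and 2.79 CPM in controls, a log2 fold change of 1.17 ± 0.44 (SE, adjusted p = 0.822). The stromelysin genes Mmp3 and Mmp10 had no count in any library, and the collagenase gene Mmp13, with 24 counts in overexpression and 6 in controls, was not tested. Of 8 tested genes of the neuronal injury programme in which Jun and Atf3 take part, 5 were fitted higher and 3 lower; the fitted log2 difference was 0.27 ± 0.18 (SE) for Klf6 and 0.74 ± 0.51 (SE) for Trib3, both with an adjusted p of 0.822.

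Marker lists of other cell types are set beside the members by library. The median of 10 tested striatal projection neuron markers, of 11 listed, was -0.40, -1.13 and 0.13 relative to the control mean in overexpression and -0.70, 0.14 and 0.55 in controls, on the log2 scale. That median was lowest in overexpression library 2 and control 1 and highest in control 3. The summed level of the 11 genes gave another order, at 262.5, 284.6 and 312 CPM in overexpression and 264.1, 251.6 and 392.2 CPM in controls, with control 2 lowest. Fosb, like the median, was lowest in control 1 and overexpression library 2 and highest in control 3. Fos was lowest in overexpression library 2, but it was highest in control 2, and control 1 lay above every overexpression library in Fos while its striatal median was below those of overexpression libraries 1 and 3. Of the striatal genes, Six3 and Isl1 had no count in at least 1 library. Jun ran in the order of the striatal median within each group. It spanned 18.8 to 21.0 CPM in overexpression and 35.95 to 43.8 CPM in controls. Across groups the order differed, since control 1 lay above every overexpression library in Jun. The part of striatal tissue in the Jun, Fos and Fosb values was not tested.

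The tested infiltrating leukocyte markers went in the other direction. Of 8 listed, 5 were tested and all 5 were fitted higher, while 50.7% of all tested genes were fitted lower. In 4 of the 5 every overexpression library lay above every control, beside 5.89% of all tested genes. Counts were low in controls, at 40 for S100a8, 63 for S100a9 and 26 for Ccr2 over all control libraries. The summed level of the 8 genes was 8.28 to 48.6 CPM in overexpression and 1.95 to 3.998 CPM in controls. S100a8 and S100a9, the calprotectin genes of neutrophils, had the highest fitted fold changes of the list, while Jchain, a plasma cell gene, supplied 25.7 of the 48.6 CPM in overexpression library 1. S100a9, Cd3e, Cd8a and Cd79a had no count in at least 1 library. Of 6 endothelial markers, 5 were fitted higher, with a summed level of 187 to 276 CPM in overexpression and 138 to 147 CPM in controls. The medians of 8 cortical glutamatergic markers stayed within 0.10 of the control mean in every library, and their summed level was 1193 to 1302 CPM in overexpression and 1169 to 1329 CPM in controls. The 6 oligodendrocyte markers were all fitted lower, beside 50.7% of all tested genes, but Mbp (-0.016) and Mobp (-0.007) were near 0 on the log2 scale. Medians of the 6 were -0.84, -0.36 and 0.03 relative to the control mean in overexpression and -0.24, 0.38 and -0.13 in controls. The part of leukocytes, oligodendrocytes and vessel cells in the AP-1 values was not tested.

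**Figure D4:**
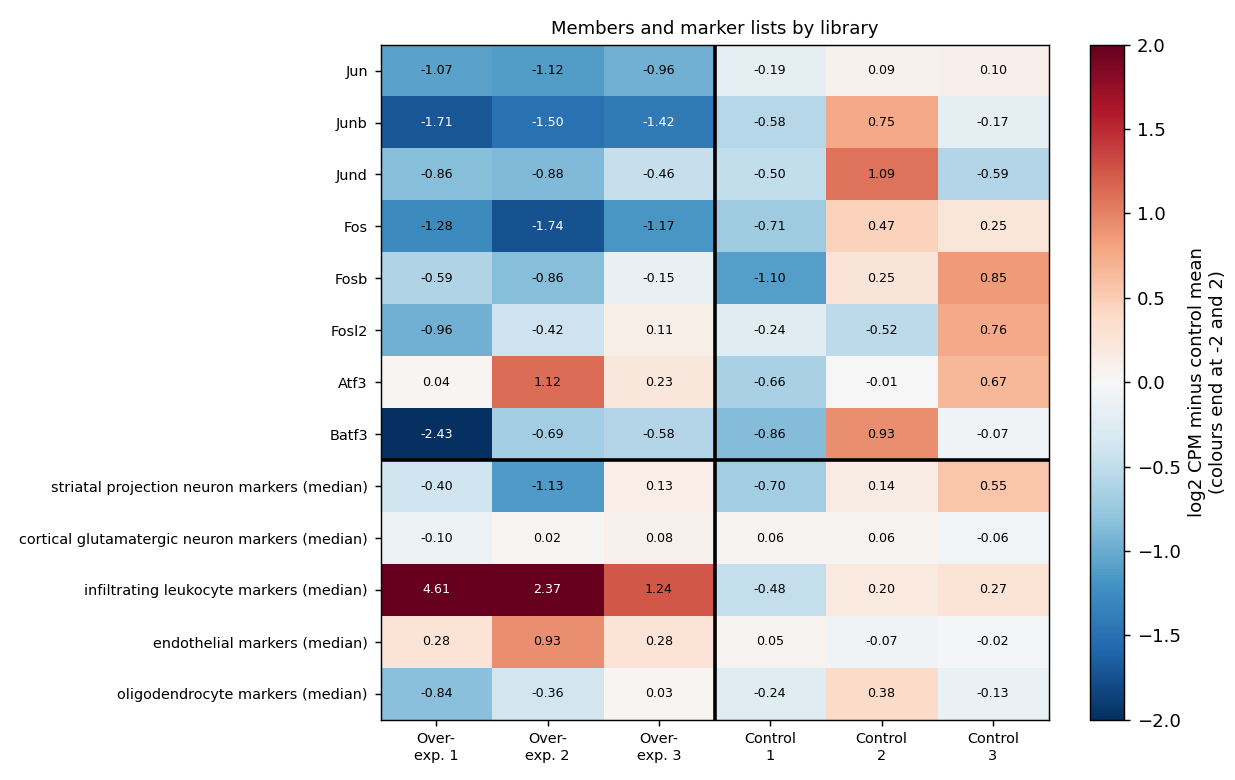
Log2 CPM minus the mean of the controls in each library, for the 8 tested members (above the line) and as medians of 5 marker lists (below it), with overexpression left of control; red is higher, blue lower, and the colours end at -2 and 2. Jun, Junb and Fos are blue in all 3 overexpression libraries, from -1.74 to -0.96, while cortical glutamatergic markers stay within 0.10 of 0.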

How the data were processed

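RNA from 6 mouse brain samples was extracted with Trizol and made into strand-specific TruSeq libraries, per the labels' protocols. Tools named in the submitters' processing notes, with no role stated, are STAR 2.5.3a, DESeq 1.16.1, Cuffnorm and FastQC 0.11.5, and the build is mm10. Not given in the sources used here are the strand setting, the counter and the annotation, so a gene and an antisense partner cannot be told apart. The authors deposited raw counts for each gene and library, and TPM values that they had derived for those genes. Columns were matched to samples by the library name, and groups came from the titles.

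Genes were kept by filterByExpr (minimum count 10) and tested with the edgeR 4.0.16 quasi-likelihood test in R 4.3.3, with TMM factors and a model holding only the group (4 residual degrees of freedom). P-values were adjusted by Benjamini-Hochberg over all tested genes, with a threshold of 0.05. CPM is the count over the TMM-scaled library size of the kept genes. SE is the size of the log2 fold change over the square root of F. The smallest two-sided p of an exact permutation test of 3 against 3 is 0.1, so none was used. Alternatives used DESeq2 1.42.0, limma 3.58.1 (voom, and trend on log2(TPM + 1) and log2(TPM + 0.1)), other scaling and filters, and the omission of each library; removal of a lowess trend on length (span 0.3) and DESeq2 without each library were added once the data had been seen. Length was taken as the ratio of CPM to TPM. Tests were tried on simulated counts.

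The members and the gene lists were chosen with earlier results of these data known. The text names all members, Wnt3, up to 2 genes with the smallest p of each pathway list, the 5 genes nearest in pattern to Jun, Fos and Junb, and the first 2 genes of some of the marker lists it describes. Gene positions and transcripts are from GENCODE M21 and promoters from RefSeq GRCm38.p6, both of the mm10 assembly; 8 of the 9 members matched a promoter record by symbol, and protein sequences were not used here. The labels do not state that replicate numbers pair the samples. Correlations of same-numbered deviations were 0.06, -0.02 and -0.01, which cannot exclude a pairing with little effect on the counts.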

Additional observations from a re-analysis of the deposited data

How the results depend on the processing

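Over 18 settings and 8 tested members, 142 of 143 fold changes kept their direction, including all 54 for Jun, Junb and Fos. The exception was Fosl2, which ran from -0.78 to 0.0239 without single libraries and was above 0 without control 3. The Jun fold change was -0.79, -0.82 and -0.79 on the log2(TPM + 1), log2(TPM + 0.1) and filtered TPM scales. The other tested members were also smaller in size on the log2(TPM + 1) scale. There Junb was at -1.28, Fos at -1.14, Batf3 at -0.559, Jund at -0.492, Fosb at -0.283, Fosl2 at -0.275 and Atf3 at 0.358. The Jund fold change was -0.17 without control 2. With the length trend removed, fold changes were smaller in size for Junb (-1.47), Fos (-1.35) and Batf3 (-0.875). They were larger in size for Jun (-1.08), Fosb (-0.78), Fosl2 (-0.603) and Atf3 (0.553). The median over tested members ran from -1.17 to -0.49 over all settings and from -1.17 to -0.70 without single libraries, and the difference in Jund share from 6.10 to 13.7 points without single libraries. DESeq2 called 64 genes and 3 members where edgeR called 0. Without single libraries it called 8 to 123 genes (29 without overexpression library 1, 8 without overexpression library 2, 123 without control 2, 108 without control 3) and 0 to 3 members. The causes were not tested. The other edgeR settings, an adjusted p of 0.1 and the omission of each library included, and the limma fits (voom and 3 on TPM) called 0 genes, members and pathway genes. With the replicate number as a block, edgeR called 0 genes, and the log2 fold change was -1.05 for Jun, -1.55 for Junb and -1.40 for Fos; no sample correlated best with its own number. Batf3 and Fosl1 had at most 58 counts in a library and Atf3 at most 110, so their values carry a large counting error.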
